A study of Mus musculus with 20 samples.

Results

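The Fc and phagocytic receptors are 10 genes whose products bind antibody, apoptotic cells, lipids or a chemokine at the macrophage surface, or carry their signals into the cell: Fcgr1, Fcgr2b, Fcgr3, Fcgr4, Fcer1g, Mertk, Axl, Trem2, Tyrobp and Cx3cr1. They were chosen by gene name, and all 10 were found among the 24888 genes of the table. Of these 10, 9 were among the 2980 expressed genes, which are those whose WT replicates averaged more than 3 RPKM at any time point. RPKM is the number of reads scaled to gene length in kilobases and to depth. Cx3cr1 was below that limit. The limit uses the highest WT mean of the time course, so Fcgr4 and Axl, which were below it at 0 h, passed only through later time points. A higher WT level of these 2 genes after lipid A is thus built into the choice and is not taken as support.

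Fcγ receptors bind the constant region of IgG and let macrophages engulf antibody-coated particles. The activating receptors signal through a partner chain with an immunoreceptor tyrosine-based activation motif (ITAM), whereas the inhibitory receptor carries a motif of the opposite effect (ITIM) in its own tail. The TAM receptor kinases Mertk and Axl recognize phosphatidylserine on dying cells through bridging proteins, and Trem2 binds lipids and lipoproteins and signals through Tyrobp.

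Nascent transcripts were measured by RNA-seq of chromatin-associated RNA in bone-marrow-derived macrophages (BMDMs), to examine the role of Rel, an NF-κB subunit, in macrophage activation. There were 20 libraries in 10 groups of 2 replicates: WT and Rel−/− BMDMs, each at 0 h (unstimulated) and after 0.5, 1, 2 and 6 h of lipid A, the part of bacterial lipopolysaccharide that activates Toll-like receptor 4. WT cells were from C57BL/6 mice and Rel−/− cells from mice lacking Rel on the same background. All were grown for 6 days in medium with CMG, a conditioned medium that supplies M-CSF. The mice were male, and their age is given in one place as 8–10 weeks and in another as 10–12 weeks. Bone marrow of 2–4 mice was pooled for each experiment, so the spread between replicates is not that between single animals. Depth was 21094000 to 45439000 reads per library, up to 37398000 in WT and from 27478000 in Rel−/−.

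The Rel gene itself was examined first. In WT, Rel was at 1.32 and 2.76 RPKM at 0 h in replicates 1 and 2, 7.48 and 20.05 at 0.5 h, 10.3 and 18.0 at 1 h, 9.74 and 12.0 at 2 h, and 3.95 and 7.33 at 6 h. The libraries labelled Rel−/− had 2.00 and 2.79 RPKM at 0 h, 10.5 and 15.0 at 0.5 h, 15.6 and 16.2 at 1 h, 9.24 and 9.96 at 2 h, and 4.22 and 4.91 at 6 h. The genotypes overlapped at all 5 time points, so the nascent Rel level does not tell them apart. These values count reads over the whole gene and do not show whether a deleted stretch is missing, so Rel−/− below means libraries with that label.

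The cell label was compared with marker genes. The 10 macrophage markers summed to between 68.3 and 240.2 RPKM per library, led by Mpeg1, Cd14, Lyz2, Adgre1 or Csf1r, and all 10 had reads above the lowest count in each library. The sums of 7 dendritic cell markers (at most 0.686 RPKM), 8 neutrophil markers (1.47), 7 mast cell and basophil markers (0.181), 5 NK cell markers (0.0505), 4 T cell markers (0.323), 4 B cell markers (0.0962) and 5 stromal markers (0.233) were far lower. Ly6g, Fcer1a, Ms4a2, Ncr1, Cd3e and Lum were at 1 or 2 reads in each of the 20 libraries. No value was 0, and 4258 genes were at 1 read in all 20 libraries, so 1 read may stand for no read. The neutrophil sum was highest in WT replicate 2 at 0, 0.5, 1 and 2 h (1.47, 0.758, 1.09 and 0.668 RPKM, against at most 0.281, 0.398, 0.398 and 0.310 in the other 3 time courses). The T cell sum was likewise highest in WT replicate 2 at 0 and 0.5 h (0.323 and 0.273 RPKM, against at most 0.101 and 0.151). Cd4 alone made up 0.310 and 0.261 RPKM of these sums, and Cd3e and Cd3g were at 1 or 2 reads in each library.

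Both WT time courses stood apart in some respect, WT replicate 2 in the neutrophil markers and Cd4 above and WT replicate 1 in its ribosomal reads. The ribosomal RNA precursor gene Rn45s took 11.04 to 17.9% of the gene reads of WT replicate 1, against 2.42 to 4.55% in WT replicate 2, 3.48 to 6.00% in Rel−/− replicate 1 and 1.56 to 2.90% in Rel−/− replicate 2. Over the expressed genes, the standard deviation (SD) of log2 values between replicates was 0.577 to 0.940 in WT and 0.319 to 0.428 in Rel−/−. For the 10 members, the fold between the replicates of a group had a median of 2.39 and a maximum of 103.9 in WT, and a median of 1.49 and a maximum of 11.6 in Rel−/−. Fcgr1, Fcgr2b, Fcgr3, Fcgr4 and Mertk were higher in WT replicate 2 than in WT replicate 1 at 5 of 5 time points. What part this had in the results was not tested. The WT changes after lipid A that were called with all libraries, or only without WT replicate 1, are therefore also given without the whole time course of WT replicate 1, and most of them without that of WT replicate 2, a choice made after seeing the data.

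**Figure D1:**
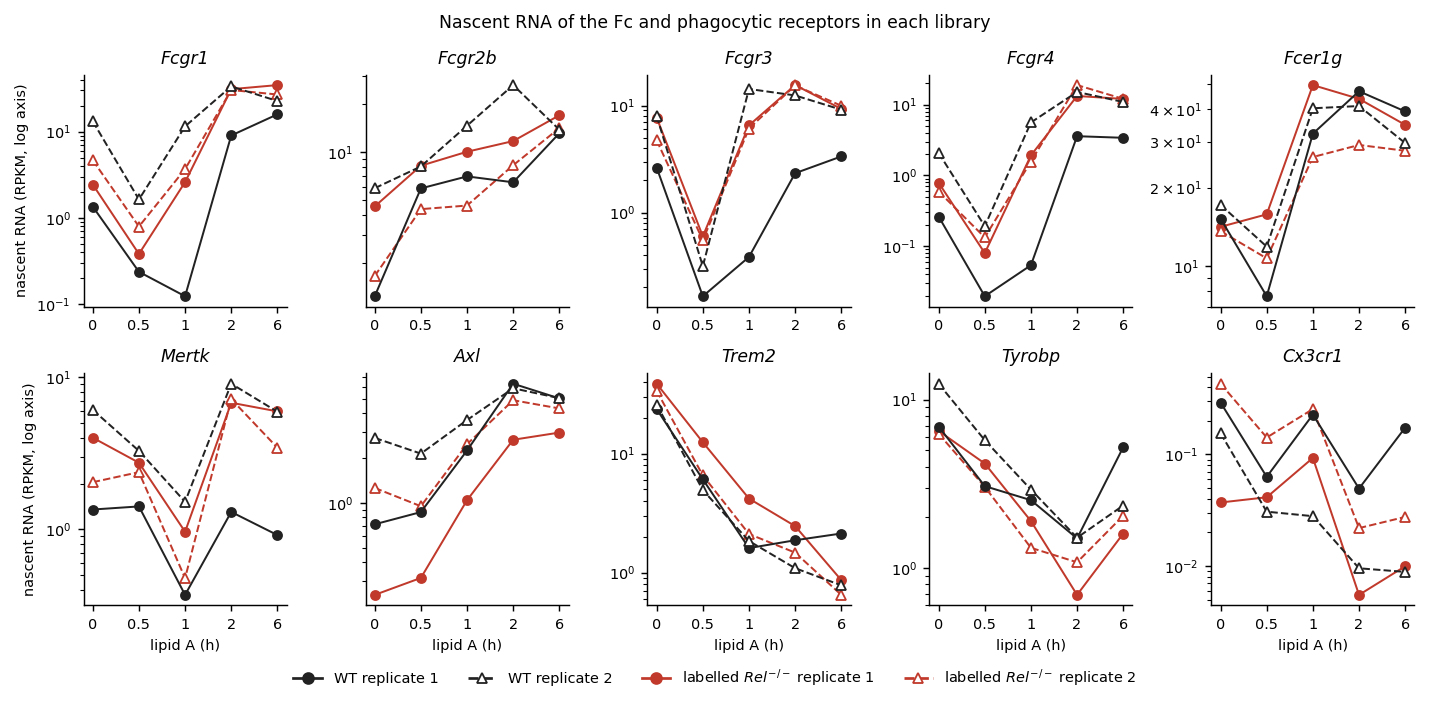
Nascent RNA of each member in each of the 20 libraries, in RPKM on a log axis, against hours of lipid A. Lines join the libraries of one genotype and replicate number. Trem2 starts at 23.7 to 38.8 RPKM and ends at 0.648 to 2.13, Fcgr1, Fcgr3 and Fcgr4 dip at 0.5 h, and WT replicate 1 lies lowest for Fcgr3, Fcgr4 and Mertk at 2 and 6 h.

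After lipid A, Trem2 and its signalling partner Tyrobp fell in both genotypes, and Fcer1g, the partner chain of the activating Fcγ receptors, rose. The inhibitory receptor Fcgr2b rose in both genotypes by 6 h, and the TAM receptor Axl and Fcgr4 rose in Rel−/− by 2 h. In WT at 2 h the log2 fold changes of Axl and Fcgr4 were also above 0, at 2.02 and 3.07. The expression limit favours a WT rise of these 2 genes, so it is not taken as support. Fcgr1, Fcgr3 and Fcgr4 had their lowest value at 0.5 h in all 4 time courses, except Fcgr1 in WT replicate 1, which was lowest at 1 h. No member was called between genotypes. As bulk cultures were measured, fewer cells with a transcript and less transcript per cell cannot be told apart.

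A gene was called when its adjusted p was below 0.05 in limma, a linear model fitted to log2(RPKM + 0.1) of all 2980 expressed genes, with Benjamini-Hochberg adjustment over them. The added 0.1 makes the fold changes of low genes smaller than their RPKM ratios. The p-values measure the spread between libraries, which may be partly technical. An exact permutation test of 2 against 2 libraries cannot go below 0.333. The time points of a genotype share its 0 h libraries. The replicate number joins libraries of both genotypes, and each replicate is also a time course, so the fits were repeated with the number as a block and with the time course as a block.

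In WT, 2 of 9 members were called at 0.5 h, where 30.8% of all expressed genes were called. At 1 h these were 3 of 9 against 36.2%, at 2 h 5 of 9 against 45.5%, and at 6 h 4 of 9 against 30.8%. In Rel−/−, 1 of 9 was called at 0.5 h against 29.5%, 3 at 1 h against 34%, 5 at 2 h against 49.6%, and 6 at 6 h against 42.3%. With 9 members, shares above or below those of all genes are no result about the members as a group. The median log2 fold change of all expressed genes was −0.33, −0.18, −0.21 and −0.15 in WT and −0.28, −0.10, −0.28 and −0.18 in Rel−/− at the 4 time points. Rescaling each library by its median ratio moved these medians up by 0.09 to 0.22, so called changes are also given relative to the median of all expressed genes at that time point.

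With the replicate block, the WT counts were 3 (40.9% of all expressed genes), 3 (45.8%), 6 (56.2%) and 6 (44.9%) at 0.5, 1, 2 and 6 h, and those of Rel−/− were 2 (40.4%), 4 (44.3%), 6 (59.7%) and 7 (53.8%). With the time course as the block, the WT counts were 7 (50%), 5 (53%), 6 (63.5%) and 6 (54%), and those of Rel−/− were 4 (49%), 6 (52.4%), 8 (65.6%) and 7 (60.8%). Without the whole time course of WT replicate 1, the WT counts were 4 (42%), 4 (47%), 4 (51.3%) and 3 (38.2%). In that fit the lone WT library of a time point is taken to vary like the Rel−/− libraries.

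The order of the members by RPKM, a level per gene length, changed over the time course. In WT at 0 h, Trem2 was highest (24.8 ± 1.54 RPKM, SD, n = 2), followed by Fcer1g (16.2 ± 1.39) and Tyrobp (9.67 ± 3.89). Replicate ranges of Trem2 and Fcer1g did not overlap, nor did those of Fcer1g and Tyrobp, whereas each neighbour pair from Tyrobp through Fcgr1, Fcgr3, Mertk, Fcgr2b, Axl and Fcgr4 to Cx3cr1 overlapped. In WT at 6 h, Fcer1g was highest (34.4 ± 6.74 RPKM), then Fcgr1 (19.2 ± 4.78) and Fcgr2b (13.4 ± 0.491), all apart from each other and from Fcgr4. Trem2 had dropped to the 9th place, above Cx3cr1 only. In Rel−/−, Trem2 was likewise first at 0 h (36.3 ± 3.53 RPKM) and 9th at 6 h (0.756 ± 0.152 RPKM), and Fcer1g (31.2 ± 5.03 RPKM) and Fcgr1 (30.8 ± 5.42 RPKM) overlapped at the top at 6 h.

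Among the activating Fcγ receptors, Fcgr1 encodes the high-affinity receptor for monomeric IgG (FcγRI; NM_010186, NCBIM37 chromosome 3 from 96086832 to 96097892). In WT, Fcgr1 was at 1.36 and 13.2 RPKM at 0 h in replicates 1 and 2, 0.239 and 1.64 at 0.5 h, 0.125 and 11.5 at 1 h, 9.03 and 33.4 at 2 h, and 15.9 and 22.6 at 6 h. In Rel−/−, Fcgr1 was at 2.44 and 4.67 RPKM at 0 h, 0.384 and 0.798 at 0.5 h, 2.61 and 3.69 at 1 h, 31.0 and 30.3 at 2 h, and 34.6 and 26.9 at 6 h. All 4 time courses had their highest values at 2 or 6 h, and the genotypes overlapped at each time point before 6 h. At 6 h both Rel−/− libraries were above both WT libraries. The spread between WT replicates was wide, 92.5-fold at 1 h, where WT replicate 1 had 33 reads.

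Fcgr1 was not called in any comparison of the fit described above. At 0.5 h, its log2 fold change was −2.52 in WT (standard error, SE, 1.45, limma adjusted p = 0.204) and −2.40 in Rel−/− (adjusted p = 0.231). At 6 h, it was 2.11 in WT (adjusted p = 0.269) and 3.14 in Rel−/− (adjusted p = 0.0942). The replicate block gave an adjusted p of 0.0277 at 2 h and 0.0310 at 6 h in Rel−/−. With the time course as the block these were 0.00632 and 0.00720, and the 0.5 h value was called in WT (adjusted p = 0.0273) and in Rel−/− (0.0345). With 1 RPKM added in place of 0.1, the Rel−/− values at 2 and 6 h had adjusted p of 0.0260 and 0.0297. The WT value at 0.5 h was called without the whole course of WT replicate 1 (−2.93, adjusted p = 0.00406) and without that of WT replicate 2 (−2.10, 0.0222). Those of WT at 2 h (2.65, 0.00508) and 6 h (3.45, 0.00205) were called without WT replicate 2 but not without replicate 1, as was that at 1 h (−2.70, 0.00649).

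Fcgr3 encodes the low-affinity activating receptor FcγRIII (NM_010188, chromosome 1 from 172981300 to 172989534). In WT, Fcgr3 was at 2.63 and 7.98 RPKM at 0 h, 0.166 and 0.316 at 0.5 h, 0.385 and 14.3 at 1 h, 2.34 and 12.4 at 2 h, and 3.35 and 9.16 at 6 h. In Rel−/−, Fcgr3 was at 7.72 and 4.73 RPKM at 0 h, 0.601 and 0.552 at 0.5 h, 6.54 and 6.11 at 1 h, 15.5 and 15.4 at 2 h, and 9.32 and 9.97 at 6 h. Each time course was lowest at 0.5 h, where no library exceeded 0.601 RPKM. At 1 h WT replicate 1 was still near its 0.5 h level, whereas the other 3 courses were back at or near their 0 h level or above it. Both Rel−/− libraries were above both WT libraries at 0.5, 2 and 6 h, and the genotypes overlapped at 0 and 1 h.

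At 0.5 h Fcgr3 fell in WT, with a mean 22.1-fold below that at 0 h. Its log2 fold change was −3.82 (SE 1.17, limma adjusted p = 0.0239), or −3.50 relative to the median of all expressed genes, and it was lower in 2 of 2 replicates. The call was lost without WT 0.5 h replicate 1 (adjusted p = 0.0932), WT 0.5 h replicate 2 (0.0670) or WT 0 h replicate 2 (0.147), with 1 RPKM added in place of 0.1 (0.0680) and with only the groups compared (0.0639). Over 14 alternatives the adjusted p ranged from 0.000122 to 0.147, and without the whole time course of WT replicate 1 it was 0.000122. In Rel−/− the log2 fold change at 0.5 h was −3.18 (adjusted p = 0.0564), with 0.0250 under the replicate block. The WT value at 1 h, −0.83 with all libraries (0.618), was called without the whole course of WT replicate 2 (−2.49, 0.000946) but not without that of replicate 1. At 6 h, Fcgr3 had a log2 fold change of 0.27 in WT (adjusted p = 0.879) and 0.66 in Rel−/− (0.670).

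Fcgr4 encodes FcγRIV, an activating receptor for IgG2 subclasses that neighbours Fcgr3 (NM_144559, chromosome 1 from 172949057 to 172959892). In WT, Fcgr4 was at 0.263 and 2.09 RPKM at 0 h, 0.0197 and 0.192 at 0.5 h, 0.0539 and 5.61 at 1 h, 3.59 and 15.1 at 2 h, and 3.40 and 10.9 at 6 h. In Rel−/−, Fcgr4 was at 0.789 and 0.593 RPKM at 0 h, 0.0800 and 0.133 at 0.5 h, 1.92 and 1.57 at 1 h, 13.3 and 18.9 at 2 h, and 12.1 in both at 6 h. All 4 courses were lowest at 0.5 h and highest at 2 h, a span of 78.8-fold to 182.4-fold within a course. The lowest value rests on 5 reads. The genotypes overlapped except at 6 h, where both Rel−/− libraries were higher.

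In Rel−/−, Fcgr4 rose by a log2 fold change of 4.34 at 2 h (SE 1.29, limma adjusted p = 0.0144) and 3.95 at 6 h (adjusted p = 0.0273), or 4.63 and 4.13 relative to the median of all expressed genes. Both replicates were higher at both time points. The 2 h call was lost without Rel−/− 0 h replicate 1 (adjusted p = 0.0559), Rel−/− 0 h replicate 2 (0.0672) or Rel−/− 2 h replicate 2 (0.0787), and without the whole course of Rel−/− replicate 1 (0.213) or replicate 2 (0.313), with a range over 14 alternatives of 0.000199 to 0.313. The 6 h call was lost without any 1 of its 4 libraries: 0.0900 without 0 h replicate 1, 0.105 without 0 h replicate 2, 0.103 without 6 h replicate 1 and 0.0959 without 6 h replicate 2. It was also lost with 0.01 RPKM added in place of 0.1 (0.0546) and without either whole course (0.352 and 0.345), and its range was 0.000302 to 0.352. In WT the log2 fold change was 3.07 at 2 h (adjusted p = 0.0684, 0.0245 with the replicate block) and 2.80 at 6 h (0.112, 0.0442 with the block). Without the whole course of WT replicate 1 it was 2.80 (0.000454) and 2.33 (0.00192), and without that of WT replicate 2 it was 3.34 (0.000278) and 3.27 (0.000503). The WT value at 0.5 h, −2.25 with all libraries (0.204), was called without either course (−2.90, 0.000650, and −1.60, 0.0120). At 1 h the WT value was called in opposite directions, 1.38 (0.0123) without replicate 1 and −1.24 (0.0285) without replicate 2.

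Fcgr2b encodes FcγRIIB, the inhibitory receptor with an ITIM in its tail (NM_010187, chromosome 1 from 172890689 to 172906202). In WT, Fcgr2b was at 1.23 and 5.90 RPKM at 0 h, 5.88 and 8.08 at 0.5 h, 7.0003 and 14.6 at 1 h, 6.43 and 26.3 at 2 h, and 13.1 and 13.8 at 6 h. In Rel−/−, Fcgr2b was at 4.53 and 1.65 RPKM at 0 h, 8.17 and 4.35 at 0.5 h, 10.01 and 4.59 at 1 h, 11.7 and 8.23 at 2 h, and 17.0 and 14.1 at 6 h. Unlike the 3 activating receptors, its lowest value was at 0 h in all 4 courses, and the genotypes overlapped at each time point but 6 h, where both Rel−/− libraries were slightly higher. Reads of Fcgr2b, Fcgr3 and Fcgr4, which are similar in sequence, could be split between them in counting, so their single values are uncertain to that extent.

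Fcgr2b rose in WT at 2 h by a log2 fold change of 2.22 (SE 0.77, limma adjusted p = 0.0319) and at 6 h by 2.26 (adjusted p = 0.0400), or 2.43 and 2.41 relative to the median of all expressed genes. In Rel−/− it rose at 6 h by 2.45 (adjusted p = 0.0224), or 2.63 relative to that median. Both replicates of each group were above their 0 h libraries by number. The 2 h call in WT was lost without WT 0 h replicate 1 (log2 fold change 1.13, adjusted p = 0.312) or WT 2 h replicate 2 (1.21, 0.305) and with no expression limit (0.0649), with a range over 14 alternatives of 0.00147 to 0.312. The 6 h call in WT was lost without WT 0 h replicate 1 (1.17, 0.338), WT 6 h replicate 1 (0.10004) or WT 6 h replicate 2 (0.159) and with no expression limit (0.0674), with a range of 0.00193 to 0.338. It was also lost without the whole course of WT replicate 1 (0.238), where the 2 h call was kept (0.0470). With only the groups compared both WT calls were lost (0.138 and 0.121), and both were kept without that of WT replicate 2 (0.0411 and 0.0113). The call in Rel−/− was lost without Rel−/− 0 h replicate 2 (0.165), 6 h replicate 1 (0.105) or 6 h replicate 2 (0.0716), and without the whole course of Rel−/− replicate 1 (0.240) or replicate 2 (0.357), with a range of 0.000847 to 0.357. At 1 h in WT the log2 fold change was 1.85 (adjusted p = 0.0753, 0.00540 with the time course as the block). In Rel−/− it was 1.27 at 1 h (0.217, 0.0357 with that block) and 1.80 at 2 h (0.0664). The latter was called with rescaling (0.0352), with that block (0.00476) and with only the groups compared (0.0194).

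Fcer1g encodes the FcRγ chain, the ITAM-bearing partner of Fcγ receptors I, III and IV (NM_010185, chromosome 1 from 173159703 to 173164480). In WT, Fcer1g was at 15.2 and 17.2 RPKM at 0 h, 7.67 and 11.9 at 0.5 h, 32.2 and 40.3 at 1 h, 46.8 and 41.1 at 2 h, and 39.2 and 29.6 at 6 h. In Rel−/−, Fcer1g was at 14.2 and 13.6 RPKM at 0 h, 15.8 and 10.7 at 0.5 h, 49.4 and 26.2 at 1 h, 43.8 and 29.1 at 2 h, and 34.8 and 27.7 at 6 h. In both genotypes every library from 1 h on was above every library at 0 and 0.5 h. The genotypes overlapped at each time point except 0 h, where both WT libraries were slightly higher.

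Fcer1g rose in WT at 1 h by a log2 fold change of 1.15 (SE 0.37, limma adjusted p = 0.0276), at 2 h by 1.43 (0.00774) and at 6 h by 1.07 (0.0434). In Rel−/− it rose by 1.37 (adjusted p = 0.0125), 1.36 (0.00937) and 1.15 (0.0252). Relative to the median of all expressed genes these were 1.33, 1.64 and 1.22 in WT and 1.46, 1.64 and 1.34 in Rel−/−. At 0.5 h the log2 fold change was −0.75 in WT (adjusted p = 0.141, 0.0424 with the time course as the block). In Rel−/− it was −0.09 (0.875), and 0.08 after median-ratio rescaling.

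Several Fcer1g calls depended on single libraries. In WT, the 1 h call was lost without 0 h replicate 1 (adjusted p = 0.104), 0 h replicate 2 (0.0620) or 1 h replicate 2 (0.135), with a range over 14 alternatives of 0.00485 to 0.170. The 6 h call was lost without 0 h replicate 1 (0.164), 0 h replicate 2 (0.0777), 6 h replicate 1 (0.168) or 6 h replicate 2 (0.0914), with no expression limit (0.0620) and with a limit on the mean of all libraries (0.0551), with a range of 0.00762 to 0.249. Leaving out any 1 library kept the 2 h call in WT. Without the whole course of WT replicate 1 none of the 3 was called (adjusted p = 0.0824, 0.0712 and 0.249), and without that of WT replicate 2 the 2 h call was kept (0.147, 0.0345 and 0.0722). With only the groups compared all 3 WT calls were lost (0.170, 0.0855 and 0.160). In Rel−/−, the 1 h call was lost without 0 h replicate 1 (0.0589), 0 h replicate 2 (0.0634) or 1 h replicate 1 (0.123), with a range of 0.00173 to 0.351. The 2 h call was lost without 2 h replicate 1 (0.0796), with a range of 0.00126 to 0.223. The 6 h call was lost without 0 h replicate 1 (0.0911), 0 h replicate 2 (0.0951), 6 h replicate 1 (0.138) or 6 h replicate 2 (0.0597), with a range of 0.00400 to 0.333. All 3 Rel−/− calls were lost without the whole course of Rel−/− replicate 1 (0.351, 0.223 and 0.333) or replicate 2 (0.135, 0.110 and 0.215). The direction was the same in each of these fits.

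Tyrobp encodes DAP12, the ITAM-bearing partner of Trem2 and other myeloid receptors (NM_011662, chromosome 7 from 31198801 to 31202598). In WT, Tyrobp was at 6.92 and 12.4 RPKM at 0 h, 3.06 and 5.74 at 0.5 h, 2.53 and 2.92 at 1 h, 1.498 and 1.51 at 2 h, and 5.22 and 2.35 at 6 h. In Rel−/−, Tyrobp was at 6.52 and 6.27 RPKM at 0 h, 4.17 and 3.04 at 0.5 h, 1.90 and 1.32 at 1 h, 0.692 and 1.08 at 2 h, and 1.60 and 2.04 at 6 h. All 4 courses were highest at 0 h and lowest at 2 h. Both WT libraries were above both Rel−/− libraries at 0, 1, 2 and 6 h, and the genotypes overlapped at 0.5 h.

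Tyrobp fell in WT, and its log2 fold changes were −1.73 at 1 h (SE 0.42, limma adjusted p = 0.00586), −2.55 at 2 h (0.000396) and −1.38 at 6 h (0.0260). In Rel−/− it fell with −1.95 (adjusted p = 0.00325), −2.75 (0.000233) and −1.76 (0.00563). Relative to the median of all expressed genes these were −1.56, −2.34 and −1.23 in WT and −1.85, −2.46 and −1.58 in Rel−/−. The 1 h call in WT was lost without WT 0 h replicate 2 (adjusted p = 0.0623), with a range over 14 alternatives of 0.00321 to 0.109. The 6 h call in WT was lost without WT 0 h replicate 2 (log2 fold change −0.96, adjusted p = 0.151) or WT 6 h replicate 2 (−0.82, 0.249), with a range of 0.00313 to 0.463. The other Tyrobp calls were kept without any 1 library, with ranges of 0.000292 to 0.0246 for WT at 2 h and 0.00233 to 0.249, 0.000158 to 0.0810 and 0.00137 to 0.275 for Rel−/− at 1, 2 and 6 h. All 3 Rel−/− calls were lost without the whole course of Rel−/− replicate 1 (adjusted p = 0.128, 0.0810 and 0.275) and without that of Rel−/− replicate 2 (0.249, 0.0504 and 0.174). Without the whole course of WT replicate 1 the 3 WT calls were kept (adjusted p = 0.00392, 0.000644 and 0.00313). Without that of WT replicate 2 those at 1 and 2 h were kept (0.0257 and 0.00316), and at 6 h the log2 fold change was −0.40 (0.463). With only the groups compared the WT calls at 1 h (0.109) and 6 h (0.165) were lost. At 0.5 h the log2 fold change was −1.12 in WT (adjusted p = 0.0561, 0.0473 with the replicate block) and −0.83 in Rel−/− (0.153).

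Trem2 encodes a lipid-binding receptor of macrophages and microglia that acts in the uptake of lipids and cell debris (NM_001272078, chromosome 17 from 48485726 to 48491601). In WT, Trem2 was at 23.7 and 25.9 RPKM at 0 h, 6.08 and 4.94 at 0.5 h, 1.61 and 1.84 at 1 h, 1.87 and 1.09 at 2 h, and 2.13 and 0.780 at 6 h. In Rel−/−, Trem2 was at 38.8 and 33.8 RPKM at 0 h, 12.5 and 6.56 at 0.5 h, 4.19 and 2.11 at 1 h, 2.46 and 1.47 at 2 h, and 0.864 and 0.648 at 6 h. Every library at 0 h was above every library at any later time point, and each later group was below the 0.5 h libraries of its genotype. Both Rel−/− libraries were above both WT libraries at 0, 0.5 and 1 h, and the genotypes overlapped at 2 and 6 h.

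Trem2 fell in both genotypes at each time point. In WT its mean was 4.50-fold below that at 0 h at 0.5 h, 14.4-fold at 1 h, 16.8-fold at 2 h and 17.0-fold at 6 h. The log2 fold changes were −2.15 (SE 0.47, limma adjusted p = 0.00371), −3.77 (6.76e-05), −4.02 (3.36e-05) and −4.15 (7.02e-05). In Rel−/− the mean was 3.81-fold, 11.5-fold, 18.5-fold and 48.0-fold below that at 0 h, with log2 fold changes of −1.99 (adjusted p = 0.00699), −3.56 (0.000143), −4.18 (2.49e-05) and −5.42 (6.43e-06). Relative to the median of all expressed genes these were −1.83, −3.60, −3.81 and −4.00 in WT and −1.70, −3.46, −3.90 and −5.24 in Rel−/−. The 0.5 h call in Rel−/− was lost without Rel−/− 0 h replicate 1 (adjusted p = 0.0532) or Rel−/− 0.5 h replicate 2 (0.0950), with a range over 14 alternatives of 0.000651 to 0.325. The other 7 calls were kept without any 1 library. Without the whole course of WT replicate 1 the 4 WT calls were kept (adjusted p = 0.0141, 0.00158, 0.000630 and 0.000834), as they were without that of WT replicate 2 (0.0406, 0.00208, 0.00183 and 0.00330). In Rel−/−, the 0.5 h call was lost without the whole course of Rel−/− replicate 1 (0.136) or replicate 2 (0.325), and the 1 h call without that of replicate 2 (0.0612). The 0.5 h call in WT was lost with only the groups compared (0.0585).

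Mertk encodes the TAM receptor kinase through which macrophages take up apoptotic cells (NM_008587, chromosome 2 from 128524651 to 128628743). In WT, Mertk was at 1.35 and 6.12 RPKM at 0 h, 1.41 and 3.28 at 0.5 h, 0.370 and 1.52 at 1 h, 1.30 and 9.09 at 2 h, and 0.916 and 5.94 at 6 h. In Rel−/−, Mertk was at 4.01 and 2.04 RPKM at 0 h, 2.74 and 2.38 at 0.5 h, 0.963 and 0.476 at 1 h, 6.82 and 7.20 at 2 h, and 5.98 and 3.45 at 6 h. All 4 courses were lowest at 1 h, and 3 of 4 were highest at 2 h, the exception being WT replicate 1. The genotypes overlapped at each time point, since WT replicate 2 was mostly the highest library and WT replicate 1 the lowest. Mertk was not called in any comparison of the fit described above, with a log2 fold change at 1 h of −1.78 in WT (SE 1.00, limma adjusted p = 0.183) and −1.92 in Rel−/− (adjusted p = 0.155). With the time course as the block, which removes the distance between courses, these had adjusted p of 0.00143 and 0.000912. Without the whole course of WT replicate 1, the WT value at 1 h was −1.94. In RPKM, WT replicates 1 and 2 were at 0.274 and 0.248 of their own 0 h level at 1 h. At 2 h in Rel−/− the value was 1.26 (adjusted p = 0.307, 0.00872 with the time course as the block).

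Axl encodes the second TAM receptor kinase of macrophages, which binds Gas6 (NM_009465, chromosome 7 from 26541519 to 26573752). In WT, Axl was at 0.719 and 2.73 RPKM at 0 h, 0.869 and 2.14 at 0.5 h, 2.25 and 3.60 at 1 h, 6.31 and 5.88 at 2 h, and 5.03 and 5.05 at 6 h. In Rel−/−, Axl was at 0.242 and 1.26 RPKM at 0 h, 0.314 and 0.951 at 0.5 h, 1.04 and 2.48 at 1 h, 2.65 and 4.89 at 2 h, and 2.97 and 4.31 at 6 h. Replicate 2 was above replicate 1 at 5 of 5 time points in Rel−/− and at 4 of 5 in WT. Both WT libraries were above both Rel−/− libraries at 2 and 6 h, and the genotypes overlapped before that. Compared with the WT library of the same number, Rel−/− was lower in 10 of 10, which are 5 time points of 2 courses and not independent pairs.

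Axl rose in Rel−/− at 2 h by a log2 fold change of 2.44 (SE 0.74, limma adjusted p = 0.0151) and at 6 h by 2.43 (0.0192), or 2.73 and 2.61 relative to the median of all expressed genes. In WT at 2 h the log2 fold change was 2.02 (adjusted p = 0.0389), or 2.23 relative to that median. Axl was at 1.73 RPKM in WT at 0 h and entered the test only through its later WT levels, so this WT call is favoured by the expression limit and is not taken as support. The WT value at 6 h was 1.75 (adjusted p = 0.0834, 0.00866 with the replicate block). The Rel−/− value at 1 h was 1.33 (0.179), and was called with the replicate block (0.0312) and with the time course as the block (0.0227). The 2 h call in WT was lost without WT 0 h replicate 1 (log2 fold change 1.13, adjusted p = 0.320), WT 2 h replicate 1 (0.107) or WT 2 h replicate 2 (0.122), with 0.01 RPKM added in place of 0.1 (0.0501), with no expression limit (0.0773) and with only the groups compared (0.0774). It was kept in 7 of 14 alternatives, with a range of 0.00178 to 0.409. Without the whole course of WT replicate 1 it was 1.08 (adjusted p = 0.409), and without that of WT replicate 2 the call was kept (0.0476). The 2 h call in Rel−/− was lost without Rel−/− 0 h replicate 1 (1.45, 0.176) or 2 h replicate 2 (0.114), and without the whole course of Rel−/− replicate 1 (0.203) or replicate 2 (0.0894), with a range of 0.000453 to 0.203. The 6 h call was lost without 0 h replicate 1 (1.43, 0.200), 6 h replicate 1 (0.0574) or 6 h replicate 2 (0.104), and without the whole course of replicate 1 (0.330) or replicate 2 (0.108), with a range of 0.000626 to 0.330. At 0.5 h the log2 fold change was −0.05 in both genotypes, and 0.13 in WT and 0.11 in Rel−/− after rescaling.

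Cx3cr1 encodes the receptor for the chemokine fractalkine and is known as a marker of monocytes and of resident macrophages such as microglia (NM_009987, chromosome 9 from 119957801 to 119977414). In WT, Cx3cr1 was at 0.292 and 0.155 RPKM at 0 h, 0.0630 and 0.0307 at 0.5 h, 0.228 and 0.0280 at 1 h, 0.0495 and 0.00954 at 2 h, and 0.174 and 0.00886 at 6 h. In Rel−/−, Cx3cr1 was at 0.0371 and 0.431 RPKM at 0 h, 0.0413 and 0.142 at 0.5 h, 0.0931 and 0.255 at 1 h, 0.00551 and 0.0219 at 2 h, and 0.00995 and 0.0275 at 6 h. The gene stayed at or below 0.431 RPKM in each library, with 3 to 347 reads, and the genotypes overlapped at all 5 time points. It was higher in WT replicate 1 than in replicate 2, and higher in Rel−/− replicate 2 than in replicate 1, at 5 of 5 time points. In a fit of all 24888 genes without the expression limit, no Cx3cr1 value was called (at 2 h, log2 fold change −1.30 in WT, SE 0.64, limma adjusted p = 0.184, and −1.25 in Rel−/−, adjusted p = 0.188). With the time course as the block in that fit, the 2 h values had adjusted p of 0.0285 and 0.0305, and the 6 h value of −1.19 in Rel−/− had 0.0359. With the replicate block in its place, none of these was called (limma adjusted p = 0.188, 0.195 and 0.215).

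**Figure D2:**
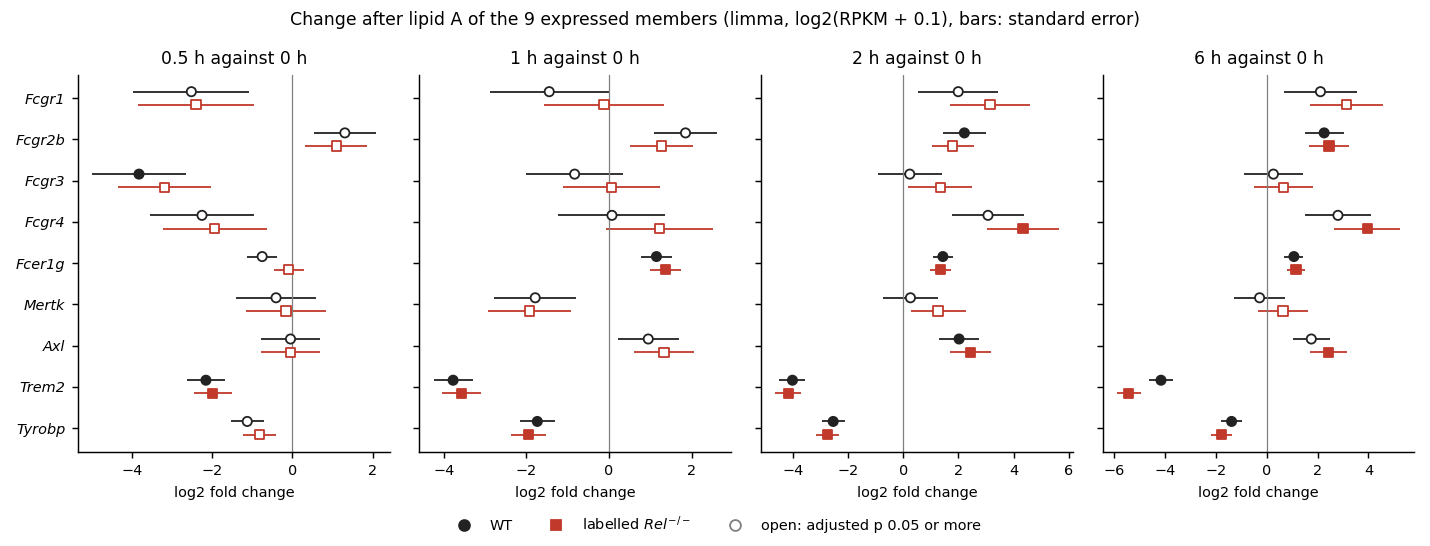
Log2 fold change of the 9 expressed members at each time point of lipid A against 0 h, from limma on log2(RPKM + 0.1), with WT as circles and Rel−/− as squares. Bars are the standard error and filled symbols have an adjusted p below 0.05, as for Trem2 at all 4 time points in both genotypes.

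Between genotypes, 0 of 9 members were called at 0 h, where limma called 0% of all expressed genes and 53 genes had an unadjusted p under 0.05. At 0.5 h these were 0 of 9 against 0.134%, at 1 h 0 against 0.973%, at 2 h 0 against 0.839% and at 6 h 0 against 0.0336%. No member had an unadjusted p under 0.05 at the first 4 time points, and 1 did at 6 h. This was Tyrobp at 6 h, with a log2 difference of −0.92 (95% confidence interval −1.82 to −0.02, limma adjusted p = 0.742). The differences, Rel−/− against WT, ran from −1.16 (Axl) to 0.55 (Trem2) at 0 h and from −1.16 (Axl) to 1.03 (Fcgr3) at 0.5 h. At 2 h they ran from −0.74 (Axl) to 1.495 (Fcgr3). The interval was narrow for Fcer1g, at −0.94 to 0.67 at 6 h, and wide for Fcgr4, at −1.82 to 3.76, so differences of several fold in Fcgr4 were not detectable with these replicates. Of the 50 pairs of genotypes, 1 for each member and time point, 34 overlapped in RPKM, 9 had both Rel−/− libraries higher and 7 had both lower. Over the 9 expressed members 35.6% of 45 pairs did not overlap, beside 32.0% of 14900 such pairs over all expressed genes, so this count is no result about the members. Median-ratio rescaling moved the median of all expressed genes by −0.11 to 0.00 between genotypes, and the Tyrobp difference at 6 h relative to that median before rescaling was −0.97. With the replicate block, which takes libraries of the same number as pairs, limma called 0 of 9 members at each of the 5 time points, against 0, 0.671, 1.58, 1.24 and 0.134% of all expressed genes. Axl, lower in each Rel−/− library than in the WT library of its number, had log2 differences of −1.16 at 0 h (adjusted p = 0.998 with the block) and −1.16 at 0.5 h (0.353). Of 10 such pairs Rel−/− was lower in 9 for Tyrobp, 8 for Fcer1g, 5 for Mertk and Cx3cr1, 4 for Fcgr1 and Fcgr2b, 3 for Fcgr4 and 2 for Fcgr3 and Trem2. The 10 pairs are 5 time points of 2 courses and are not independent. Such pairs were not counted over all expressed genes, so these counts, with that of Axl, are no result about the members. For Fcgr2b at 0 h, the log2 difference of 0.01 became −0.07 after median-ratio rescaling.

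**Figure D3:**
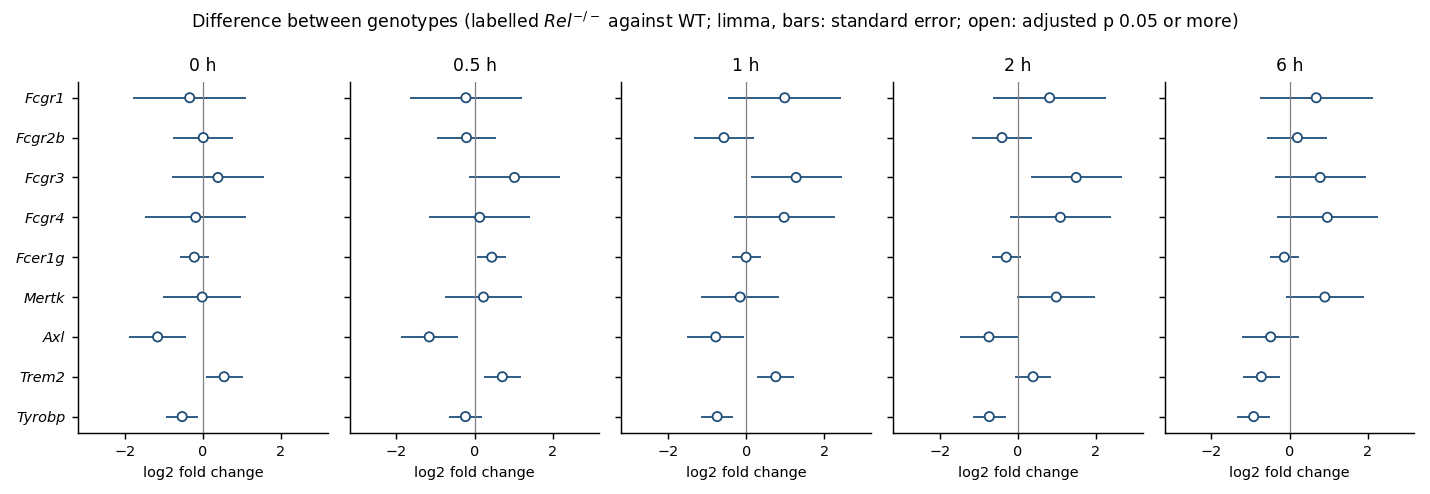
Log2 difference between Rel−/− and WT of the 9 expressed members at each time point, from limma on log2(RPKM + 0.1), with bars for the standard error. All symbols are open since no member had an adjusted p below 0.05, and the bars of Fcgr1, Fcgr3 and Fcgr4 are the longest.

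The comparison between genotypes depended on which WT time course was used. Without WT replicate 1, Fcgr4 was called at 0 h (1 of 9 members against 5.07% of all expressed genes, log2 difference −1.48, limma adjusted p = 0.0358), and at 1 h Fcgr1 (−1.86, 0.0435), Fcgr3 (−1.17, 0.0394) and Fcgr4 (−1.63, 0.0152) were called as lower in Rel−/− (3 of 9 against 11.1%). At 0.5, 2 and 6 h, 0 members were called by limma in that fit, against 7.85, 3.15 and 0.201%. Without WT replicate 2, the same 3 receptors were called at 1 h in the opposite direction: Fcgr1 with 3.83 (adjusted p = 0.00326), Fcgr3 with 3.73 (0.00145) and Fcgr4 with 3.58 (0.00147), 3 of 9 against 18%. In that fit 0 were called at 0 h (0.0671%), 1 at 0.5 h (Fcgr3, 1.35, adjusted p = 0.0454, against 3.93%), 3 at 2 h (Fcgr3, Fcgr4 and Mertk, 7.32%) and 4 at 6 h (Fcgr3, Fcgr4, Mertk and Tyrobp, 8.05%). No direction of a difference between genotypes is therefore given for Fcgr1, Fcgr3 and Fcgr4 at 1 h. In both fits the spread comes from the Rel−/− libraries alone.

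Whether the response to lipid A differed between genotypes was tested as the difference of both log2 fold changes. In limma this called 0 of 9 members at 0.5, 1, 2 and 6 h, and 0% of all expressed genes, with 79, 103, 85 and 44 genes at an unadjusted p under 0.05 and 0 members among them. The values at 6 h ran from −1.27 for Trem2 (interval −2.71 to 0.17, adjusted p = 0.9998) to 1.15 for Fcgr4 (interval −2.80 to 5.10). The calls of Fcgr4 at 2 and 6 h in Rel−/− but not in WT are therefore not shown to differ, with differences of 1.27 (interval −2.68 to 5.22) and 1.15. For Fcer1g at 2 h, the difference of −0.08 was 0.01 after rescaling. Fcgr3 at 1 h was called in 1 of the fits tried, that without the whole course of WT replicate 2 (2.56, adjusted p = 0.0477).

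Members were next compared with each other across the 20 libraries, as Pearson correlations of log2(RPKM + 0.1) that describe these libraries and rest on shared time points and replicates. Fcgr1 and Fcgr4 were closest (r = 0.96), followed by Fcgr3 and Fcgr4 (0.88) and Fcgr1 and Fcgr3 (0.86). Fcgr2b was less like them, at 0.61 with Fcgr4, 0.52 with Fcgr1 and 0.33 with Fcgr3. Trem2 and Tyrobp had r = 0.75, and Axl and Trem2 −0.77. Among all other expressed genes, the 3 most like Fcgr1 were Samhd1 (0.98), Themis2 (0.98) and H2-T24 (0.98), and those most like Fcgr4 were Adap2 (0.98), Samhd1 (0.98) and Tdrd7 (0.98). For Fcgr3 these were Khdrbs1 (0.95), Cd164 (0.94) and Stx12 (0.94), and for Fcgr2b Slc31a2 (0.88), Slamf7 (0.88) and Mefv (0.87). Fcer1g was most like Shisa5 (0.92) and the proteasome subunit genes Psme1 (0.91) and Psmb10 (0.91). Trem2 was most like Gas6 (0.97), the gene of the Axl and Mertk ligand, then Ap1s2 (0.94) and Camk1 (0.94). Tyrobp was most like B3gnt8 (0.95), Cd300c2 (0.93) and Laptm5 (0.91), Mertk like Lcor (0.86), Tifa (0.84) and Wdfy2 (0.84), and Axl like Parp9 (0.91), Cers6 (0.90) and Slco3a1 (0.90).

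No gene of the table overlapped a member. The closest neighbour was Hcst, which encodes the adaptor DAP10 and lies 132 bases from Tyrobp. Hcst was at 0.151 to 1.20 RPKM, with r = 0.91 to Tyrobp over 20 libraries. Hnrnpul1 lies 1740 bases from Axl, at 1.22 to 3.86 RPKM and r = −0.46, and Treml1 7639 bases from Trem2, at 0.0574 to 10.6 RPKM and r = 0.83. Fcgr4 and Fcgr3 are 21407 bases apart. The nearest genes of Fcgr1 (Hist2h2bb), Fcgr2b (Fcrla), Fcgr3 (Mir6546), Mertk (Anapc1) and Cx3cr1 (Ccr8) had r of −0.09, −0.27, −0.01, 0.28 and −0.17.

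Other genes of these pathways were taken from 6 lists. Of all 2980 expressed genes, 657 rose and 698 fell in WT at 2 h, and 452 rose and 466 fell at 6 h. Of 13 other Fc receptors, 2 were expressed, and in WT at 6 h 1 rose and 0 fell, with a median log2 fold change of −0.42 beside −0.15 for all expressed genes. The gene that rose was Trim21, a cytosolic antibody receptor (log2 fold change 2.07, limma adjusted p = 0.00936). Of 26 further ITAM-coupled or ITIM-bearing myeloid receptors, 13 were expressed, 1 rose and 4 fell at 6 h (median −0.48), and at 2 h 1 rose and 6 fell. Clec4e, which encodes the FcRγ-coupled lectin Mincle, rose by 4.08 (adjusted p = 0.000491). Cd300lb (−3.36, 0.000699), the inhibitory receptor gene Cd300a (−2.91, 0.000218) and Cd200r1 (−1.91, 0.00742) fell. With only the groups compared in limma, Trim21 (adjusted p = 0.0861), Cd300lb (0.0652), Cd300a (0.0508) and Cd200r1 (0.0767) were not called. Trim21 was not called without WT 0 h replicate 1 (0.102) or WT 6 h replicate 2 (0.0634; range 0.000810 to 0.102), nor Cd200r1 without WT 0 h replicate 2 (0.0550) or WT 6 h replicate 2 (0.0718; range 0.000852 to 0.105).

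Of 33 genes of ITAM signalling downstream of Fcer1g and Tyrobp, 26 were expressed. In WT 5 rose and 10 fell at 2 h (median −0.55 beside −0.21), and 4 rose and 3 fell at 6 h (median 0.15 beside −0.15). The replicate block called 11 of 26 at 6 h, against 44.9% of all expressed genes. The kinase gene Src rose (log2 fold change 3.34, limma adjusted p = 0.000193), and the kinase gene Tec (−2.20, 0.000424) and Inpp5d, which encodes the inhibitory phosphatase SHIP1 (−1.97, 0.000781), fell. Inpp5d was not called with only the groups compared (0.0556).

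Of 29 genes for the uptake of apoptotic cells around Mertk and Axl, 15 were expressed, and in WT 1 rose and 5 fell at 2 h (median −0.72) and 2 rose and 3 fell at 6 h (median −0.69). The time course block called 8 of 15 at 6 h, against 54% of all expressed genes. Gas6, the ligand gene, fell by 4.93 on the log2 scale at 6 h (limma adjusted p = 0.000105), and so did the scavenger receptor gene Stab1 (−2.42, 0.0104). Rac2, a GTPase gene (1.72, 0.00235), and the transporter gene Abca7 (1.04, 0.0232) rose. With only the groups compared, Stab1 (0.0785), Rac2 (0.0618) and Abca7 (0.153) were not called. Stab1 was not called without WT 6 h replicate 2 (0.125, range 0.000183 to 0.195). Abca7 was not called without WT 6 h replicate 1 (0.0570), WT 0 h replicate 2 (0.128) or WT 6 h replicate 2 (0.121), with a range of 0.00963 to 0.153.

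Of 16 genes of complement receptors and the phagocytic cup, 13 were expressed, and in WT 3 rose and 6 fell at 2 h (median −0.65) and 1 rose and 0 fell at 6 h (median 0.28). At 6 h the replicate block called 2 of 13, against 44.9% of all expressed genes, and the time course block 6, against 54%. Msn, which encodes the membrane linker moesin, rose (log2 fold change 1.14, limma adjusted p = 0.00600), and was not called without WT 6 h replicate 2 (0.0519, range 0.00183 to 0.144). Of 5 ligands and sheddases of Trem2 and Cx3cr1, 2 were expressed, and limma called 0 at 2 and at 6 h (medians −0.45 and −0.45), with 1 of 2 at 6 h under the replicate block (44.9% of all). In Rel−/− at 6 h, where 582 of all expressed genes rose and 678 fell, the lists had 1 and 1 (other Fc receptors), 2 and 3 (ITAM and ITIM receptors), 4 and 6 (ITAM signalling), 2 and 4 (apoptotic cell uptake), 1 and 0 (complement and cup) and 1 and 0 (ligands and sheddases). The replicate block called 2, 6, 12, 7, 3 and 1 of them in this order, against 53.8% of all expressed genes. Between genotypes, limma called 1 of the 71 expressed list genes at 1 h, against 0.973% of all expressed genes. At 0, 0.5, 2 and 6 h it called 0 of 71, against 0, 0.134, 0.839 and 0.0336%. The count at 1 h is near the share of all expressed genes and is no result about the lists. The gene called was Myo10, a myosin gene of the phagocytic cup (−1.89, adjusted p = 0.0210, 0.00551 with the replicate block). It was not called without WT 1 h replicate 1 (0.0995), WT 1 h replicate 2 (0.0865), Rel−/− 1 h replicate 1 (0.252) or Rel−/− 1 h replicate 2 (0.162), with a range of 0.00551 to 0.9998. The replicate block called 3 list genes at 0.5 h (Cd300lb, 2.76, Itgav, −2.68, and Myo10, −1.85) and 2 at 1 h (Cd300lb, 2.26, and Myo10). With this block, 0.671% of all expressed genes were called at 0.5 h and 1.58% at 1 h.

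Promoters were examined for Fcgr1, Fcgr3 and Fcgr4, whose levels were correlated, and for Trem2, the member with the largest fall at 6 h. RefSeq windows of the GRCm38.p6 build, 250 bases before to 50 bases after the gene start, were matched for 9 of 10 members, Tyrobp being the other, with 10 windows in all because Fcgr3 has 2 starts. The motifs were chosen after the levels were seen, and were searched on both strands. TTCNNNGAA, the letters bound by STAT factors (GAS), was in the window of Fcgr1 and in 8.30% of all 32851 windows. The core of the interferon-stimulated response element (ISRE), GAAA and again GAAA with any 2 bases between them, was in that of Fcgr4 (3.44% of all). A κB form, GGG and TTCC with any 3 bases between them, was in those of Fcgr3 (5.56%). GAGGAA, the core bound by PU.1, was in windows of Fcgr1, Fcgr3, Fcgr4, Axl and Trem2 (28.3% of all windows), and TGANTCA, the AP-1 letters, in that of Trem2 (7.81%). A match is a description of the letters and shows no binding.

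The windows of these 4 genes are printed 5′ to 3′ on the gene strand, with the matches in capitals (GAGGAA appears as its reverse complement). They are Fcgr1 (chr3:96293920-96294219, minus strand), Fcgr4 (chr1:171018676-171018975, plus strand), Fcgr3 (chr1:171059354-171059653, minus strand) and Trem2 (chr17:48346151-48346450, plus strand), for Fcgr3 that of 1 of its 2 starts. The κB and PU.1 matches of Fcgr3 lie 152 and 6 bases before this start, the GAS match of Fcgr1 109 bases, the ISRE match of Fcgr4 73 bases and the AP-1 match of Trem2 9 bases.
Fcgr1: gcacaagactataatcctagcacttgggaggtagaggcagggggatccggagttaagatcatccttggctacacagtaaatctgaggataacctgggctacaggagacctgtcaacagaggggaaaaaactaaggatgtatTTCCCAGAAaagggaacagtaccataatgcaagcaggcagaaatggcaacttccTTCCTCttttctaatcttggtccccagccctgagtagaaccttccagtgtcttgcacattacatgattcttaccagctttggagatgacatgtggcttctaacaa
Fcgr4: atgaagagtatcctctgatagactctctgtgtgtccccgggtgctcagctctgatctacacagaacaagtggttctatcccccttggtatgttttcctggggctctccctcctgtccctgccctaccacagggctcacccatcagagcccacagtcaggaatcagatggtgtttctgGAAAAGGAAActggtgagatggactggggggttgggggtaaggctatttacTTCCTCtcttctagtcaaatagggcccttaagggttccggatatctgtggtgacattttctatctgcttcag
Fcgr3: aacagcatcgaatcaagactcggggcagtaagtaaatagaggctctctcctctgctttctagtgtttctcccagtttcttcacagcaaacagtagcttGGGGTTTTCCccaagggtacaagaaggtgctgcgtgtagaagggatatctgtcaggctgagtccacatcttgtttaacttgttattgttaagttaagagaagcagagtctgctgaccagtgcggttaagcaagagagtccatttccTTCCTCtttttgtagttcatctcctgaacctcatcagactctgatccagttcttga
Trem2: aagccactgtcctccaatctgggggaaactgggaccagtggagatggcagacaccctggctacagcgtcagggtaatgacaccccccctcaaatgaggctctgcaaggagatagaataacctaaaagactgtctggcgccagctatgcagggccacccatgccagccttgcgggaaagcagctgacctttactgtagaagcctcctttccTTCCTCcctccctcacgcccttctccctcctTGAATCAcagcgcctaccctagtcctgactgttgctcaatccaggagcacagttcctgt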

How the data were processed

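Nascent RNA was measured in 20 libraries. The authors aligned reads to the mm9 (NCBIM37) genome with HISAT2, sorted them with SAMtools, counted reads per gene with SeqMonk, and deposited RPKM, reads divided by depth and gene length. RPKM multiplied by the whole gene span gave whole reads, from which depth was recovered. The libraries were made with a kit that marks strand, but the strand used in counting is unknown here. The authors tested raw counts with DESeq2. Here RPKM was tested and no count model was fitted to the recovered reads. The test was limma (version 3.58.1, R 4.3.3), applied to log2(RPKM + 0.1) with 1 mean for each of 10 groups, eBayes with a trend, and Benjamini-Hochberg adjustment over 2980 expressed genes at 0.05. All libraries entered 1 fit, with 10 residual and 3.14 prior degrees of freedom, which was tested on simulated data. Tables used Python 3.11.15 (numpy 2.4.6, pandas 2.3.3, scipy 1.17.1) and figures matplotlib 3.10.9.

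The replicate numbers come from the labels. As a check of pairing, each log2 value was taken relative to the mean of its group and correlated across genes, which are not independent. WT and Rel−/− of 1 time point and number gave 0.136 to 0.472. With 2 replicates a group, each of these values rests on 1 difference between replicates per genotype. Such differences are also correlated between time points, so the values do not establish that the numbers pair the libraries. Different time points of 1 number gave 0.448 to 0.779 for WT and, for Rel−/−, 0.125 to 0.598. The fit above has no block, and fits with a replicate block and with a time course replicate block are given beside it.

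The members and lists were chosen with earlier results of these data known. The genes named are all members, up to 4 genes of each list (from those called with the largest log2 fold change in WT at 6 h or between genotypes), the 3 expressed genes most correlated with each member, the nearest genes of members, Rel and the cell type markers. Rn45s and the list genes called under the block were named after their values were seen. Alternatives were another pseudocount, another expression limit or none, median-ratio rescaling, both blocks, only the groups compared, and each library left out. Leaving out whole time courses, and all alternatives for the list genes, were added after seeing the data.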

Additional observations from a re-analysis of the deposited data

Results flagged for a closer look

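Mertk RPKM at 6 h was below its own 0 h level in both WT courses and above it in both Rel−/− courses. In WT, replicates 1 and 2 were at 0.679 and 0.972 of their own 0 h level, and in Rel−/− at 1.49 and 1.69 of it. The median-ratio factor of WT replicate 2 was 1.14 at 0 h and 0.981 at 6 h. Dividing by these factors places WT replicate 2 slightly above its 0 h level, so this split by genotype depends on the scaling. The difference in response was 0.92 on the log2 scale (SE 1.41, limma adjusted p = 0.9998). With the time course as the block its SE was 0.51 (adjusted p = 0.999), and neither fit called it. Neither change against 0 h was called (log2 fold change −0.28 in WT, adjusted p = 0.849, and 0.65 in Rel−/−, adjusted p = 0.625).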

How the results depend on the processing

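All 29 calls of members after lipid A kept their direction under each alternative, and all 29 were kept under both blocks and under median-ratio rescaling. With only the groups compared in the fit, which leaves 2 residual degrees of freedom, 19 were kept, and 12 were kept with each single library left out. Under both other pseudocounts and both other filters, 23 were kept. Without a whole time course of their own genotype, 9 of 14 WT calls were kept without WT replicate 1 and 11 without WT replicate 2, and of 15 Rel−/− calls 3 were kept without Rel−/− replicate 1 and 2 without Rel−/− replicate 2. In the last 2 fits the spread of Rel−/− is taken from the WT libraries, which varied more. The replicate block ended no call of a member or of a named list gene. The causes of the changes below were not tested, beyond the fewer libraries or the more genes that a setting brings by construction.

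The number of members called in WT at 0.5 h (2) was 7 with the time course replicate block and 0 with only the groups compared. At 1 h (3) it was 5 and 1. At 2 h (5) it was 3 with no expression filter and 2 with only the groups compared, and at 6 h (4) it was 2 and 1. With only the groups compared, 2.99, 2.85, 19.5 and 6.04% of all expressed genes were called in WT at the 4 time points, and 47.9, 45.8, 64 and 64.2% in Rel−/−. In Rel−/−, the number at 0.5 h (1) was 2 with the replicate block, 4 with the time course block and 5 with only the groups compared. At 1 h (3) it was 6 with the time course block and 5 with only the groups compared, and at 2 h (5) it was 8 and 9. With libraries or whole time courses left out, the WT counts at 0.5, 1, 2 and 6 h ranged from 1 to 4, 2 to 6, 3 to 7 and 1 to 4, and those of Rel−/− from 0 to 1, 0 to 3, 1 to 4 and 1 to 3. Between genotypes they ranged from 0 to 1 at 0 h, 0 to 1 at 0.5 h, 0 to 3 at 1 h, 0 to 3 at 2 h and 0 to 4 at 6 h. For the difference in response at 1 h the range was 0 to 1. Of all expressed genes in WT, the replicate block called 56.2% at 2 h and 44.9% at 6 h, and the time course block 63.5% and 54%.

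For the other Fc receptors in WT, the count at 2 h (2) was 1 with a pseudocount of 0.01 RPKM, 5 with no expression filter, 1 with a mean over all libraries above 1 RPKM and 1 with only the groups compared, and at 6 h (1) it was 2 with a pseudocount of 1 RPKM, 3 with no filter, 2 under both blocks and 0 with only the groups compared (left-out ranges 1 to 2 and 0 to 2). For the ITAM and ITIM receptors at 6 h (5) it was 1 with only the groups compared (3 to 7). For ITAM signalling it was 5 at 2 h (15) with only the groups compared (7 to 18), and at 6 h (7) 11 and 12 with the replicate and the time course block and 2 with only the groups compared (4 to 14). For apoptotic cell uptake at 2 h (6) it was 12 with no filter and 2 with only the groups compared (4 to 11), and at 6 h (5) 10 with no filter, 8 with the time course block and 1 with only the groups compared (2 to 8). For complement receptors and the phagocytic cup at 2 h (9) it was 3 with only the groups compared (4 to 8), and at 6 h (1) 2 with no filter, with rescaling and with the replicate block, 6 with the time course block and 0 with only the groups compared (0 to 3). For the ligands and sheddases at 2 h (0) it was 1 with no filter and with the time course block (0 to 1), and at 6 h (0) 1 with no filter, with rescaling and with the replicate block and 2 with the time course block (0 to 1). Between genotypes, list genes called at 0 h (0) were 1 with no filter (0 to 6), at 0.5 h (0) 3 with a pseudocount of 1 RPKM, with the mean above 1 RPKM and with the replicate block and 2 with no filter (0 to 7), at 1 h (1) 2 with those 3 settings, 3 with no filter and 0 with only the groups compared (0 to 17), at 2 h (0) 3 with no filter (0 to 11), and at 6 h (0) 1 with no filter (0 to 8).

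Nascent RNA does not show how much mature RNA or receptor protein the cells held. With 2 libraries a group, 10 groups share the estimate of the spread, and WT spread was larger than that of Rel−/−. Mice were pooled, so animals were not compared. RPKM over the whole gene does not tell introns from exons or full-length transcripts from early ends, and strand of counting is unknown. Depth limits Fcgr1, Fcgr3, Fcgr4, Cx3cr1, Tyrobp, Trem2 and Axl, whose lowest values rest on 33, 32, 5, 3, 73, 132 and 214 reads.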
